A study of Mus musculus with 81 samples.

Results

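Neutrophils of NON/ShiLtJ mice were set against neutrophils of NOD/ShiLtJ mice, using the arrays titled NON and the arrays titled NOD. These are 4 of the 81 arrays of the series, 2 from each strain. NOD is an inbred strain that develops autoimmune diabetes spontaneously, and NON is its nonobese, nondiabetic sister strain. Both carry the genes of their own inbred background and no transgene, targeted allele or treatment. The labels give the mice as males at 6 weeks of age. Each array held RNA of bone marrow cells that were sorted as CD11b+ Ly6G+ and pooled from several mice. The series design text states that the replicates of a strain are biological, and gives a slightly younger age at which the mice were obtained. The other 77 arrays fall by title into 38 further groups, 1 per inbred strain as titled, and serve here to set the spread and the range of levels.

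Neutrophils are made in the bone marrow from dividing precursors. Promyelocytes make the azurophil granule proteins, myelocytes make the specific granule proteins and are the last stage that divides, and later stages make gelatinase granules and the receptors of the mature cell. Ly6G appears on the surface during this maturation, so a sort on CD11b and Ly6G can hold late dividing precursors as well as mature cells. In NOD mice the disease is driven by autoreactive lymphocytes under the control of many Idd loci, of which the histocompatibility region is the strongest.

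The 12 measured neutrophil markers were bright on all 4 arrays. Their mean level was 13.31 and 13.32 log2 intensity units on the NON arrays, against 13.40 and 13.42 on the NOD arrays. Ly6g, the antigen used in the sort, measured 13.71 and 13.73 in NON, against 13.71 and 13.74 in NOD. The array medians were 110.9 and 106.4 intensity units in NON, against 100.7 and 103.9 in NOD. Correlations of log2 values over all probe sets were 0.9928 between the NON arrays, 0.9953 between the NOD arrays and 0.9853 to 0.9873 between arrays of the different strains. The number of arrays limits the precision, and no detection limit is given with the values. Where a level is low, a log2 difference understates the true fold change. NOD replicate 2 stood apart in platelet genes, with Ppbp at 11.51 against 8.17 on NOD replicate 1.

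All levels below are log2 intensities. A difference is NON minus NOD with its standard error (SE), where 1 is a 2-fold change and a positive value means higher in NON. A probe set was called at a Benjamini-Hochberg adjusted p under 0.05 from limma, which took the spread from all 40 groups. Of 24922 probe sets, 675 were higher and 765 lower in NON, together 5.78%. With a difference of at least 1 in addition, 115 were higher and 139 lower, or 1.02%. The share of calls that were higher was 46.9%, and it was 29.3% when all arrays were brought to a common median. Counted over the 19752 named genes, each through its brightest probe set, 2.84% were higher and 3.01% were lower, and the median difference was 0.05. Leaving out 1 array gave 1023 calls without NON replicate 1, 826 without NON replicate 2, 850 without NOD replicate 1 and 671 without NOD replicate 2.

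The 30 genes with the largest differences mostly lay inside the level range of the series. The 15 largest increases ran from 2.24 to 4.12 and the 15 largest decreases from -2.08 to -4.26. These 30 genes were chosen for large called differences without overlap of the arrays, so their calls and their separation were set by that choice. In 4 of the 30 the NON mean, and in 3 the NOD mean, lay outside the range of the other 38 group means. NOR/LtJ, a diabetes-resistant strain bred from NOD with segments of C57BL/KsJ, lay within 0.5 of the NOD mean for 23 of the 30 genes and within 0.5 of the NON mean for 1. Over all 193 genes called with a difference of at least 1, those counts were 117 and 13. Among the same 193 genes, the NON mean lay outside the range of the other 38 group means for 51, and the NOD mean for 22. The 38 groups include NOR.

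**Figure D1:**
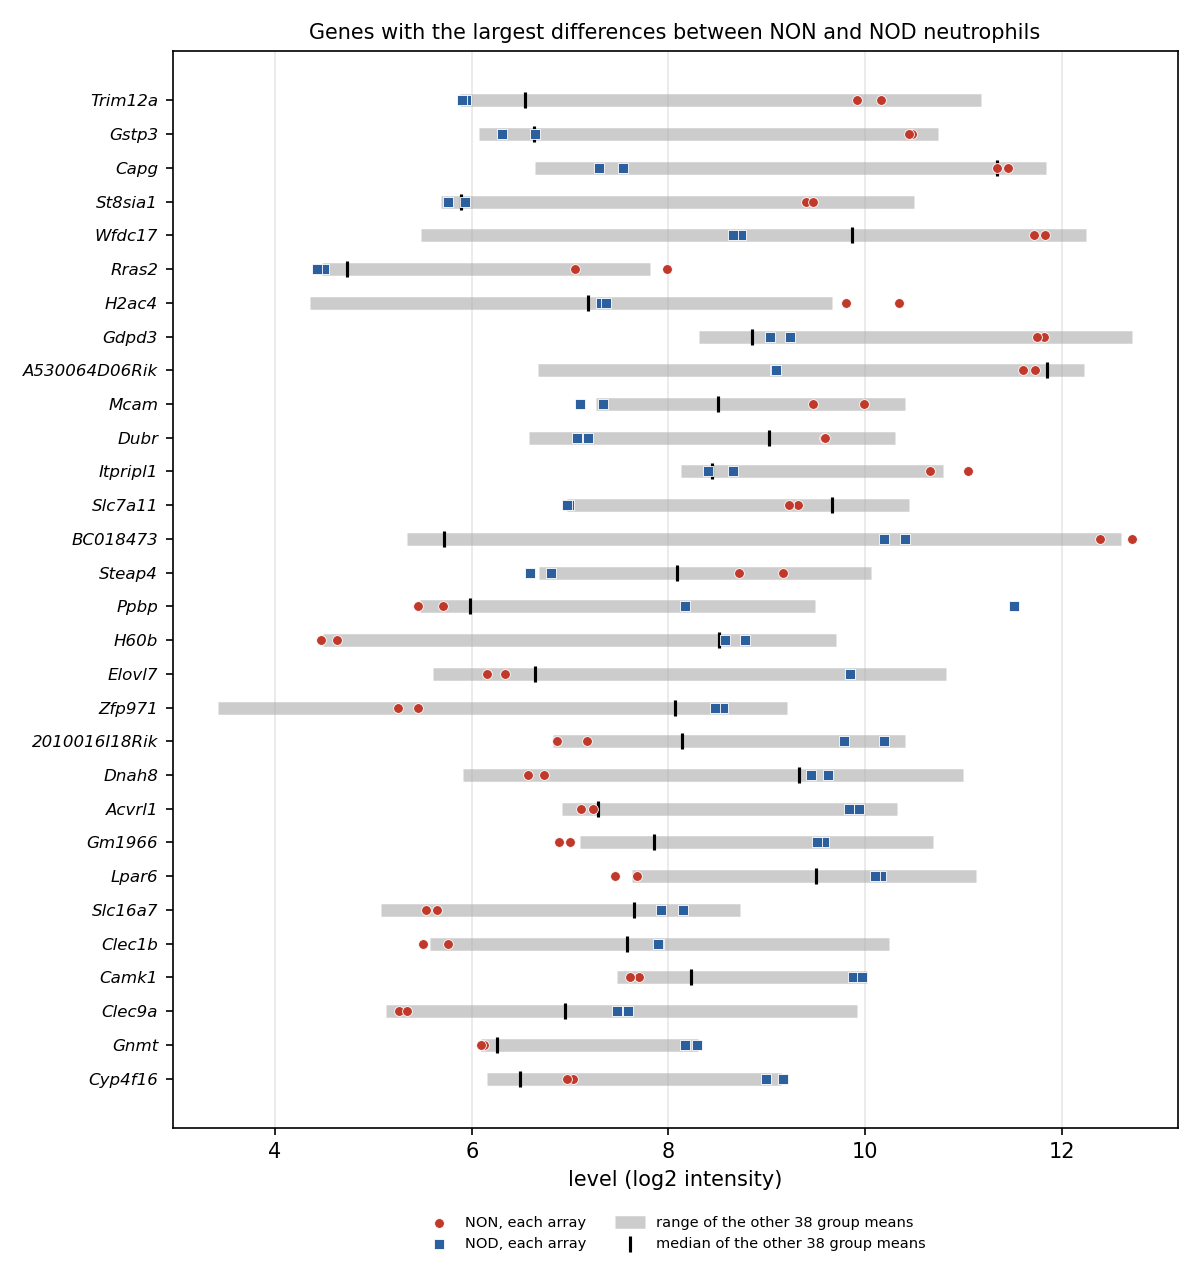
Level (log2 intensity, x axis) of the 30 genes with the largest differences, 1 row per gene, with the 15 higher in NON on top. Circles are the NON arrays, squares the NOD arrays, grey bars the range and black ticks the median of the other 38 group means. The genes were chosen so that the NON and NOD arrays do not overlap, and their differences reach 4.12 for Trim12a and -4.26 for Ppbp.

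Among genes higher in NON, Trim12a, a tripartite motif gene of the rodent cluster related to the retroviral restriction factor Trim5, led the list. It measured 10.16 and 9.91 in NON, against 5.94 and 5.90 in NOD, a difference of 4.12 ± 0.18 (adjusted p = 1.18e-23). The other 38 group means for Trim12a ran from 5.88 to 11.18, with a median of 6.54, so NOD sat at the low end with most strains. NOR measured 10.61 and here lay nearer NON. Trim30d, of the same cluster, was higher as well, with 8.07 and 8.16 in NON, against 7.36 and 6.89 in NOD. Its difference was 0.99 ± 0.22 (adjusted p = 0.0021). Trim30d was not called with groups by background label (adjusted p = 0.511), nor without NOD replicate 2, where the difference was 0.75. Trim12c, Trim30a, Trim34a and Trim6 did not pass the test. Genes of this cluster are near copies of each other, and how far their probe sets share signal was not tested.

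Several of the largest increases were genes of metabolism and of the cell cortex. Capg, an actin filament capping protein of the gelsolin family, measured 11.45 and 11.34 in NON, against 7.29 and 7.53 in NOD. The difference was 3.98 ± 0.19 (adjusted p = 1.02e-22), and the median of the other groups was 11.35, close to NON. Gstp3, a glutathione S-transferase of the pi class, measured 10.48 and 10.45 in NON, against 6.31 and 6.65 in NOD, a difference of 3.99 ± 0.20 (adjusted p = 5.81e-22). For Gstp3 the other median was 6.64, close to NOD. St8sia1, the sialyltransferase that makes the ganglioside GD3, measured 9.39 and 9.47 in NON, against 5.93 and 5.76 in NOD, a difference of 3.59 ± 0.18 (adjusted p = 5.81e-22), and most other groups again lay near NOD with a median of 5.89. Slc7a11, the cystine transporter subunit that supplies glutathione synthesis, measured 9.32 and 9.23 in NON, against 6.99 and 6.96 in NOD. Its difference was 2.30 ± 0.19 (adjusted p = 1.16e-13), and NOR, at 6.97, had the lowest mean of all groups. Gsr, glutathione reductase, was the other member of the glutathione and redox list that was called, at 12.32 and 12.45 in NON and 11.71 and 11.69 in NOD. Of the 23 measured members of the list, 21 were not called, beside 2.84% of all genes higher. Gstp1, named like Gstp3, differed by -0.62 and was not called (adjusted p = 0.0994). Whether the Gstp probe sets share signal was not tested.

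Wfdc17, a small secreted whey acidic protein domain gene of myeloid cells, measured 11.83 and 11.72 in NON, against 8.73 and 8.66 in NOD. Its difference was 3.08 ± 0.53 (adjusted p = 5.22e-05), with a wide SE that was pooled over all groups. Stfa3, a stefin that inhibits cysteine proteases, went the other way with 7.16 and 7.69 in NON, against 8.87 and 8.86 in NOD and a difference of -1.44 ± 0.25 (adjusted p = 7.15e-05). Wfdc17 and Stfa3 were the called members of 9 measured stefins and antiproteases, beside 2.84% of all genes higher and 3.01% lower. Rras2, a small GTPase of the Ras family, measured 7.05 and 7.99 in NON, against 4.49 and 4.42 in NOD, a difference of 3.06 ± 0.23 (adjusted p = 7.90e-15). The NOD mean of Rras2 was the lowest of all groups, and with intensities under 64 set to 64 the difference was 1.52. Mcam, the adhesion molecule CD146, measured 9.47 and 9.98 in NON, against 7.10 and 7.33 in NOD, and NOD was again the lowest group. The remaining genes of the 15 were H2ac4, Gdpd3, A530064D06Rik, Dubr, Itpripl1, BC018473 and Steap4. H2ac4 is described with the histones. Itpripl1, related to a regulator of the inositol trisphosphate receptor, measured 10.66 and 11.04 in NON, against 8.66 and 8.40 in NOD, and its NON mean was above all 38 other group means. Steap4, a metalloreductase that takes part in iron and copper uptake, measured 8.72 and 9.17 in NON, against 6.81 and 6.59 in NOD.

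Among genes lower in NON, several encode surface receptors. H60b, a ligand of the activating receptor NKG2D, measured 4.63 and 4.46 in NON, against 8.57 and 8.78 in NOD, a difference of -4.13 ± 0.24 (adjusted p = 3.66e-19), and with intensities under 64 set to 64 it was -2.67. The other median of H60b was 8.52, close to NOD. Acvrl1, the type I receptor ALK1 of the TGF-beta family, measured 7.24 and 7.11 in NON, against 9.94 and 9.83 in NOD, a difference of -2.71 ± 0.18 (adjusted p = 2.31e-16). The gene next to it, Acvr1b, an activin type I receptor, was also lower at 6.73 and 7.14 in NON, against 8.71 and 8.40 in NOD, a difference of -1.62 ± 0.16 (adjusted p = 2.91e-11). For both genes NOR was close to NOD, at 10.23 for Acvrl1 and 8.64 for Acvr1b. Lpar6, a receptor for lysophosphatidic acid, measured 7.46 and 7.68 in NON, against 10.16 and 10.10 in NOD, a difference of -2.56 ± 0.15 (adjusted p = 1.51e-18), and the NON mean was below all 38 other group means. Clec1b, the podoplanin receptor CLEC-2 best known on platelets, measured 5.75 and 5.51 in NON, against 7.91 and 7.89 in NOD, a difference of -2.27 ± 0.23 (adjusted p = 1.60e-10). Its neighbour Clec9a, a receptor for actin exposed by dead cells and best known on dendritic cells, measured 5.26 and 5.34 in NON, against 7.48 and 7.59 in NOD, a difference of -2.23 ± 0.23 (adjusted p = 1.73e-10).

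The other large decreases included enzymes and transporters. Elovl7, which elongates long-chain fatty acids, measured 6.15 and 6.34 in NON, against 9.84 and 9.85 in NOD, a difference of -3.60 ± 0.21 (adjusted p = 3.69e-19). Gnmt, glycine N-methyltransferase of the methionine cycle, measured 6.12 and 6.09 in NON, against 8.17 and 8.29 in NOD, and Cyp4f16, a cytochrome P450 of the fatty acid hydroxylase family, measured 7.03 and 6.97 in NON, against 8.99 and 9.16 in NOD. For Gnmt and Cyp4f16 the medians of the other groups were 6.25 and 6.49, near NON, and the NOD means ranked 39 of 40 from low to high. The group above NOD for Gnmt was NOR, at 8.30. Slc16a7, a monocarboxylate transporter, measured 5.65 and 5.54 in NON, against 8.14 and 7.93 in NOD, and Camk1, a calmodulin-dependent kinase, measured 7.70 and 7.61 in NON, against 9.88 and 9.97 in NOD. Zfp971, 2010016I18Rik, Dnah8 and Gm1966 completed the 15 with Ppbp, which is described with the platelet genes.

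Genes of cell division were higher in NON across several lists, with none called lower. Of 32 measured DNA replication genes, 22 were higher in NON and 0 lower, with a median difference of 0.76, beside 2.84% of all genes higher and a median over all genes of 0.05. Of 32 mitosis and spindle genes, 12 were higher and 0 lower, with a median of 0.74. Of 26 replication-dependent histone genes, 14 were higher and 0 lower, with a median of 0.82. Of 22 genes of G1 control, 7 were higher and 0 lower. The replication list averaged 7.73 and 7.92 on the NON arrays, against 7.27 and 7.01 on the NOD arrays. The mitosis list averaged 9.20 and 9.28 in NON, against 8.64 and 8.31 in NOD. For each of these 4 lists the NON mean was above every one of the other 38 group means.

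These counts changed when single arrays were left out. Each such fit also has fewer arrays, and how far that alone lowered the counts was not tested. The replication count was 18 without NON replicate 1, 10 without NON replicate 2, 21 without NOD replicate 1 and 8 without NOD replicate 2. The mitosis count was 7, 3, 8 and 3 in the same order, and 7 with a common array median. The histone count was 14, 10, 13 and 11. The G1 control count was 5, 4, 5 and 4, and 4 with a common array median. The medians of the replication list ran from 0.59 to 0.89 over these left-out arrays and those of the mitosis list from 0.62 to 0.90.

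**Figure D2:**
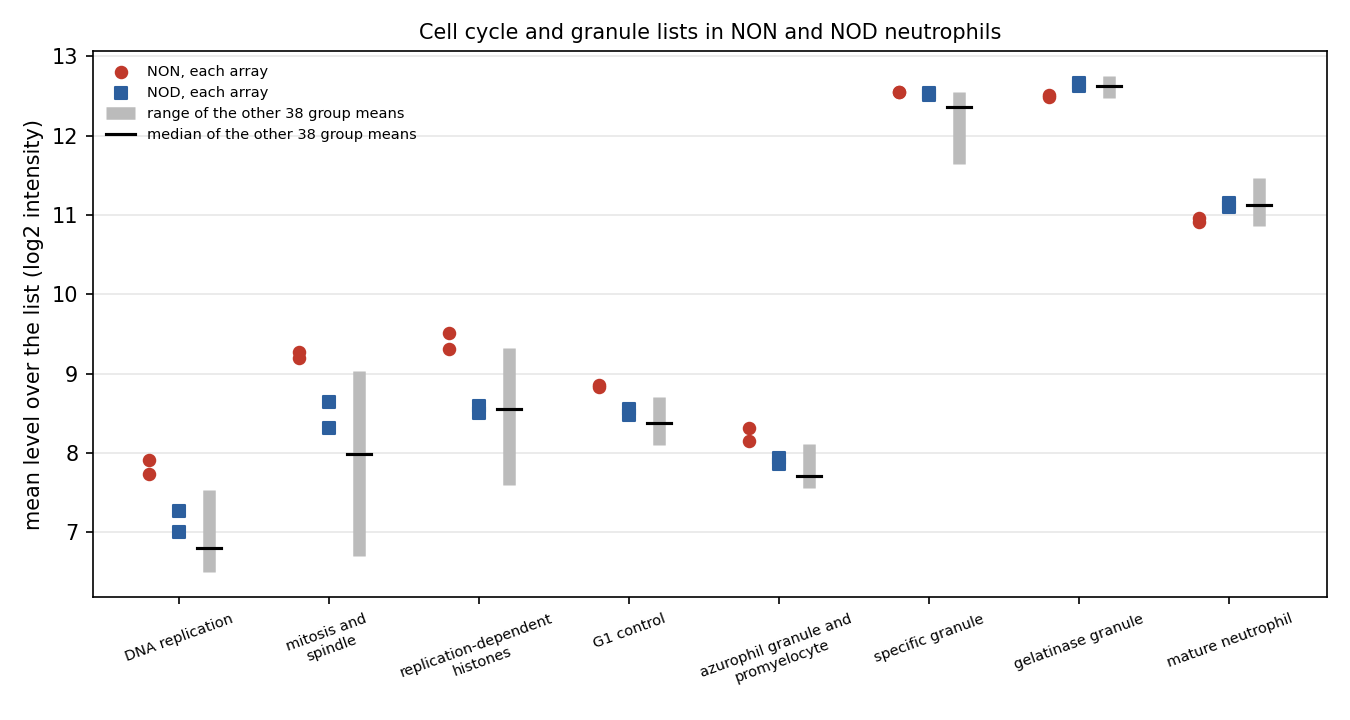
Mean level of each gene list (log2 intensity, y axis) on each NON array (circles) and each NOD array (squares), beside the range (grey bar) and median (black line) of the other 38 group means. Both NON arrays lie above the grey bar for DNA replication, mitosis and spindle, G1 control and azurophil granule genes, and the mature neutrophil list lies lower in NON.

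Genes of the replicative helicase were higher. Its 6 subunit genes Mcm2 to Mcm7 were called, and Mcm2 measured 8.05 and 8.55 in NON, against 7.25 and 7.08 in NOD, a difference of 1.14 ± 0.15 (adjusted p = 7.85e-08). Mcm7 measured 8.69 and 9.39 in NON, against 8.29 and 7.42 in NOD, a difference of 1.19 ± 0.24 (adjusted p = 6.66e-04), and here NON replicate 1 lay closest to NOD replicate 1. Mcm3 and Mcm6 differed by 0.95 and 0.97. Rrm1 and Rrm2, the subunits of ribonucleotide reductase, which makes the DNA precursors, differed by 1.25 ± 0.32 (adjusted p = 0.0108) and 0.95 ± 0.28 (adjusted p = 0.0323). Rfc5, a subunit of the clamp loader that puts the sliding clamp on DNA, measured 9.83 and 10.28 in NON, against 9.19 and 8.71 in NOD, a difference of 1.11 ± 0.14 (adjusted p = 5.53e-08), and Rfc4 of the same complex differed by 0.97. Pcna, the sliding clamp itself, measured 10.07 and 10.19 in NON, against 9.45 and 9.24 in NOD and was not called, with an adjusted p of 0.0944. NON had the highest mean of all 40 groups for 23 of the 32 genes, and the share of all genes with NON highest was not counted. Over the whole list NOD ranked 32 of 40 from low to high. NOR averaged 6.514, near the lowest group at 6.495. Mcm6, Mcm7, Rrm1, Rrm2 and Rfc4 were not called without NON replicate 2, with adjusted p from 0.0979 to 0.214, nor without NOD replicate 2, with adjusted p from 0.126 to 0.383, and Rrm2 was not called without NON replicate 1 either, with an adjusted p of 0.0732.

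Among mitosis genes, Aurkb, the chromosomal passenger kinase, measured 10.37 and 10.50 in NON, against 9.40 and 9.05 in NOD, a difference of 1.21 ± 0.22 (adjusted p = 1.11e-04). Nusap1, which bundles spindle microtubules, differed by 1.09 ± 0.32 (adjusted p = 0.0262), and Bub1b, a spindle checkpoint kinase, by 1.07 ± 0.21 (adjusted p = 5.30e-04). Plk1, a kinase of mitotic entry and exit, measured 9.89 and 10.33 in NON, against 9.21 and 8.86 in NOD, a difference of 1.07 ± 0.28 (adjusted p = 0.0102). Tpx2, Kif20a, Ccnb2 and Aurka were the others among the 8 largest calls, with differences of 0.99, 0.93, 0.88 and 0.81. Top2a, the topoisomerase that untangles chromosomes, measured 10.23 and 10.46 in NON, against 9.32 and 9.05 in NOD and Mki67, a proliferation marker, 11.22 and 10.71 in NON, against 10.31 and 10.09 in NOD. Neither was called, with adjusted p of 0.0809 and 0.202. Of the called mitosis genes named here, Aurkb kept the call with each array left out. Nusap1 and Tpx2 lost it in all 4 such fits, with adjusted p from 0.0505 to 0.256, Ccnb2 in 3 with adjusted p from 0.15 to 0.361, Plk1 and Kif20a without NON replicate 2 or NOD replicate 2 with adjusted p from 0.14 to 0.312, Aurka without NON replicate 2 (adjusted p = 0.0999) and Bub1b without NOD replicate 2 (adjusted p = 0.058). All 32 mitosis genes had a positive difference, from 0.40 to 1.21.

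Of the G1 control genes that were called, E2f1, an activator of S-phase genes, measured 8.18 and 8.11 in NON, against 7.43 and 7.43 in NOD, a difference of 0.72 ± 0.13 (adjusted p = 8.26e-05). Its repressor relatives E2f7 and E2f8 differed by 0.69 and 0.84. Ccne1 and Ccne2, the cyclins that start S phase, differed by 0.76 and 0.85. Cdkn2c, an inhibitor of cyclin D kinases, and Rbl1, the pocket protein p107, differed by 0.90 and 0.75. Rbl1 was not called in any of the 4 fits with 1 array left out, with adjusted p from 0.0802 to 0.235. Ccne2 and Cdkn2c were each called in 1 of them, and E2f8 was not called without NON replicate 1 (adjusted p = 0.0774).

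Histone genes of the replication-dependent class gave the largest differences of these lists. Their transcripts are made in S phase and end in a stem-loop. The coding sequences of core histones are nearly identical within each class, so a probe set may read several copies. H2ac4 measured 9.80 and 10.35 in NON, against 7.31 and 7.36 in NOD, a difference of 2.74 ± 0.56 (adjusted p = 6.82e-04), and its NON mean was above all other groups. H4c4 measured 13.79 and 13.74 in NON, against 11.83 and 12.001 in NOD, a difference of 1.85 ± 0.24 (adjusted p = 9.97e-08). H4c6, H2bc3 and H4c14 differed by 1.61, 1.48 and 1.45, and H2bc8, H1f5 and H2bc9 by 1.30, 1.26 and 1.12. In the histone cluster on chromosome 13, H2bc8, H3c4, H4c4 and H2bc4 were 4 neighbours in a row among the measured genes that were each at least 2-fold higher. H2bc3, H2bc9 and H4c6 were not called without NON replicate 2, with adjusted p from 0.0593 to 0.13, and H2bc3 and H1f5 were not called without NOD replicate 2, with adjusted p of 0.0644 and 0.0753.

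Promoters of these lists share short motifs, which are shown here because members of each list were higher together. Windows of 250 bases before and 50 after a gene start came from the RefSeq table of build GRCm38.p6 and matched 27 of the 32 replication genes, 27 of the 32 mitosis genes and 22 of the 26 histone genes. An E2F motif, TTTGGCGC, TTTCGCGC or TTTCCCGC on either strand, was found in 37.5% of the 32 windows of replication genes, beside 1.8% of all 32851 windows. The cell cycle homology region TTTGAA, on either strand, was found in 83.3% of the 30 mitosis windows, beside 17.9% of all. It was also found in 54.5% of the histone windows and 9.4% of the replication windows. CCAAT, on either strand, was found in 56.2% of replication, 73.3% of mitosis and 86.4% of histone windows, beside 37.4% of all. The octamer ATTTGCAT, on either strand, was found in 36.4% of the 22 histone windows, beside 1.7% of all. The E2F motif was present for 9 of 18 called and 3 of 9 uncalled replication genes, and TTTGAA for 6 of 8 called and 16 of 19 uncalled mitosis genes. The octamer was present for 5 of 12 called and 3 of 10 uncalled histone genes. A match is a string of letters and not an observed binding site. The sequences below are the 250 bases before the start, 5′ to 3′, of called genes with the largest differences that hold the motif there, with the motif in capitals. The counts above also cover the 50 bases after the start. Of the mitosis genes only Ccnb2 is shown, and its marked stretch begins 167 bases before the start. In Mcm6 a pair of E2F motifs on opposite strands overlap at the first site.
Mcm7, chr5:138171884-138172133, reverse strand: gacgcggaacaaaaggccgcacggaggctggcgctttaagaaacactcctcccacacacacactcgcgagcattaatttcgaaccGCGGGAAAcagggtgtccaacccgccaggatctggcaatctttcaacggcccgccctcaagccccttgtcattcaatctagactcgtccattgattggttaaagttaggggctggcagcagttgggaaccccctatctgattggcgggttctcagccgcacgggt
Mcm6, chr1:128359706-128359955, reverse strand: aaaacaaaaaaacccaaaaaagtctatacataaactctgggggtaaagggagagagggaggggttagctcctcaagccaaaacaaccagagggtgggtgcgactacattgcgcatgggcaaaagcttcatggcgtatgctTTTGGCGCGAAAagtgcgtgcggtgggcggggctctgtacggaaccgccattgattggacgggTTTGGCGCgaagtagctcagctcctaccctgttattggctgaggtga
Ccnb2, chr9:70421555-70421804, reverse strand: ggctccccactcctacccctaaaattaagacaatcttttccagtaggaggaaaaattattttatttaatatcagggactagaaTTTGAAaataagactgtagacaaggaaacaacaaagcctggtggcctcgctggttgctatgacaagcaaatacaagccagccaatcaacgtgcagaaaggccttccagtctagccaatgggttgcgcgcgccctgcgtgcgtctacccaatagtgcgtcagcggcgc
H2ac4, chr13:23750838-23751087, forward strand: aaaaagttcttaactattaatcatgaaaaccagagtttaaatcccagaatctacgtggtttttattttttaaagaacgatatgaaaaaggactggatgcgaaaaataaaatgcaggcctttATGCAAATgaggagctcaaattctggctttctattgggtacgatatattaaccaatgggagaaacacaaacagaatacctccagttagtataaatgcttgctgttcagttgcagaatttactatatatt
H2bc3, chr13:23746484-23746733, forward strand: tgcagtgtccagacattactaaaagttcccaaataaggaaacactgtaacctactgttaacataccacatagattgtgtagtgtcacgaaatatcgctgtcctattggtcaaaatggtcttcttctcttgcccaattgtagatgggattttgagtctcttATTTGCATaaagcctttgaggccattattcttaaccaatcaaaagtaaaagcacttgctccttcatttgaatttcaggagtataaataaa

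Granule genes made by early precursors held most of the granule genes called higher in NON. Of 11 azurophil granule and promyelocyte genes, 5 were higher and 0 lower, with a median of 0.31, beside 2.84% of all genes higher. Ms4a3, a marker of granulocyte and monocyte progenitors, measured 7.92 and 8.15 in NON, against 7.01 and 6.71 in NOD, a difference of 1.18 ± 0.24 (adjusted p = 5.26e-04). Nkg7, a granule membrane protein, measured 8.32 and 8.10 in NON, against 7.26 and 7.44 in NOD, a difference of 0.86 ± 0.20 (adjusted p = 0.00303). Elane, neutrophil elastase, measured 7.01 and 7.89 in NON, against 6.87 and 6.85 in NOD, and Mpo, myeloperoxidase, 7.20 and 7.87 in NON, against 6.97 and 7.01 in NOD. For Elane and Mpo, NON replicate 2 was the highest array and NON replicate 1 lay close to NOD, and the count for the list was 2 without NON replicate 2, 3 without NON replicate 1, 2 without NOD replicate 1 and 3 without NOD replicate 2. Prtn3, proteinase 3, differed by 0.46 ± 0.13 (adjusted p = 0.0227). Of the 5, Ms4a3 kept the call with each array left out. Gfi1, a repressor needed for granulocyte formation, was the only called member of 15 progenitor factors, at 8.42 and 8.63 in NON and 7.93 and 7.49 in NOD, a difference of 0.81 ± 0.12 (adjusted p = 5.48e-06).

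Of 16 specific granule genes only Ceacam10, an adhesion molecule of the carcinoembryonic antigen family, was called, at 11.23 and 11.13 in NON, against 10.57 and 10.40 in NOD, and Ltf, Camp, Ngp and Lcn2 differed by -0.07 to 0.04. Of 7 gelatinase granule genes, Adam8, a surface metalloprotease, measured 11.66 and 11.57 in NON, against 11.96 and 12.03 in NOD and Mmp8, neutrophil collagenase, 13.30 and 13.35 in NON, against 13.55 and 13.55 in NOD, and both were lower, with adjusted p of 0.0263 and 0.0453, beside 3.01% of all genes lower. Neither was called in any of the 4 fits with 1 array left out, with adjusted p from 0.0629 to 0.238, nor with the NON and NOD arrays alone, and quantile normalization called 4 of the 7 lower. Of 12 mature neutrophil genes none was called by limma. Their median difference was -0.19, and 4 had an unadjusted p under 0.05, beside 3706 of all 19752 genes. Ptgs2, the inducible prostaglandin synthase, measured 6.11 and 6.32 in NON, against 7.42 and 7.71 in NOD with an adjusted p of 0.0596. Of 5 NADPH oxidase genes none was called by limma and 0 had an unadjusted p under 0.05, with differences between -0.06 and 0.20. In bulk samples a different share of cells of a stage and a different amount of RNA per cell cannot be told apart, and this holds for all cell division and granule genes above.

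**Figure D3:**
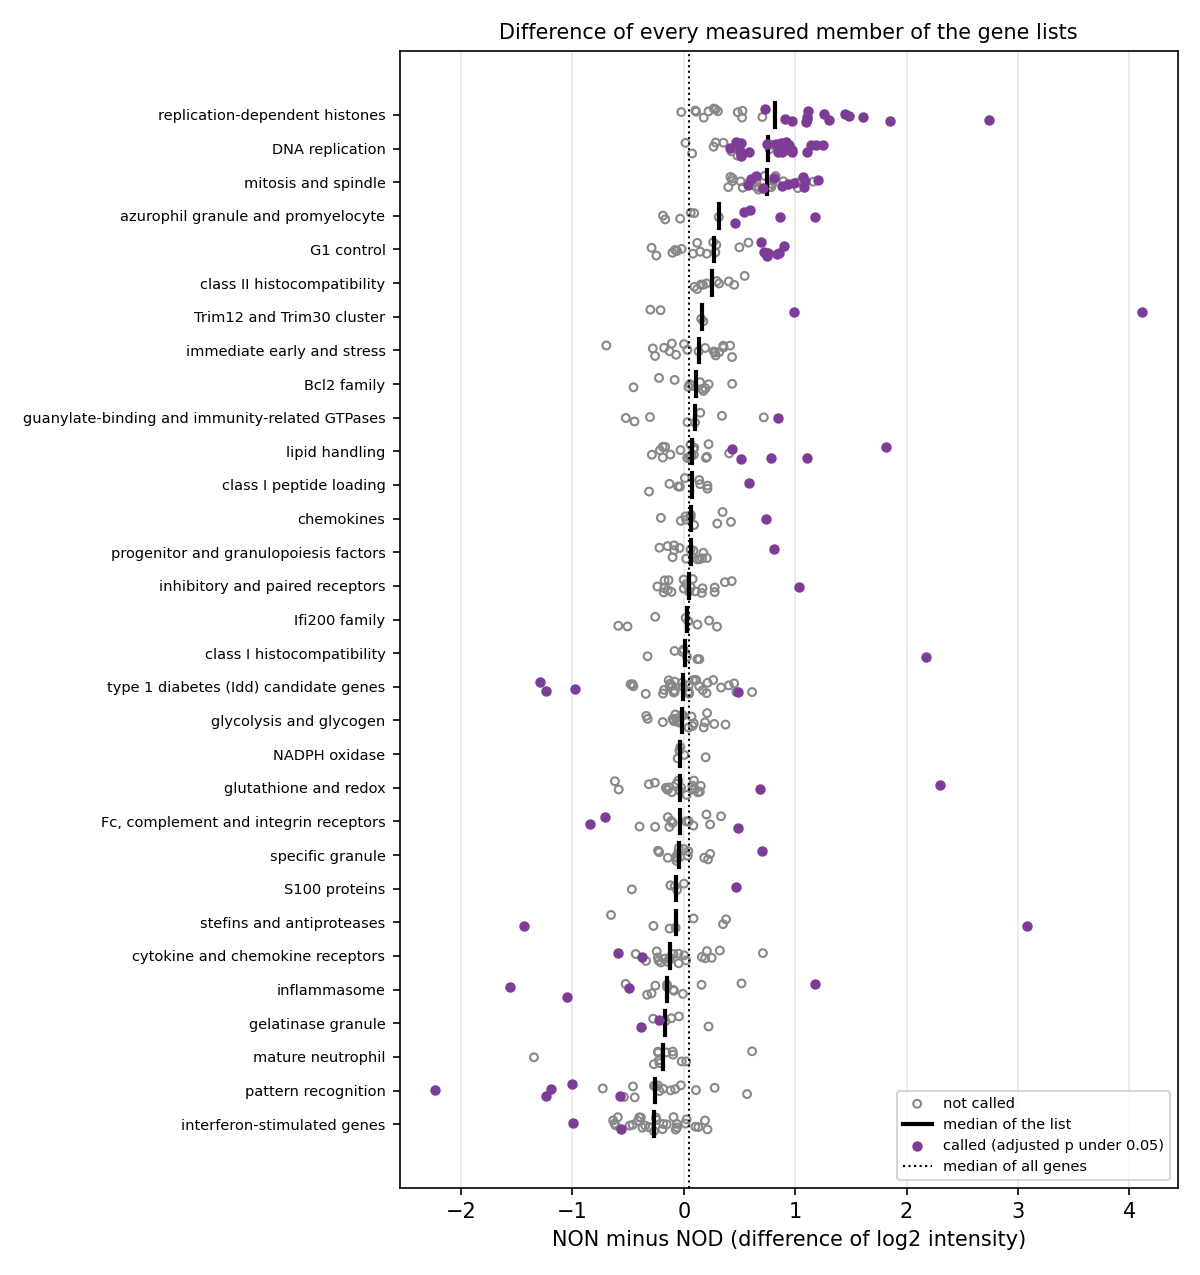
Difference NON minus NOD (log2 intensity, x axis) of every measured member of the 31 gene lists that are not cell type markers, 1 row per list, ordered by median. Filled points were called and open points were not, thick bars mark each list's median and the dotted line the median of all genes. The histone, replication and mitosis lists lie on top, with medians from 0.74 to 0.82 and no member called lower.

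Genes of the pattern recognition list were lower in NON where they were called. Of 20 pattern recognition genes, 5 were lower and 0 higher, with a median of -0.26, beside 3.01% of all genes lower. Tlr1 and Tlr6, the partners of Tlr2 in sensing bacterial lipopeptides, measured 5.06 and 5.09 in NON, against 6.42 and 6.21 in NOD for Tlr1 and 8.24 and 8.49 in NON, against 9.62 and 9.50 in NOD for Tlr6. Their differences were -1.24 ± 0.18 (adjusted p = 1.66e-06) and -1.19 ± 0.17 (adjusted p = 1.56e-06). Tlr1, Tlr6 and Fam114a1 were 3 neighbours in a row that were each at least 2-fold lower, and Fam114a1 differed by -1.18 ± 0.16 (adjusted p = 2.61e-07). NOR was at least as high as NOD for all 3, with means of 6.96, 10.10 and 8.35. With intensities under 64 set to 64 the difference of Tlr1 was -0.31 and was no longer called, with an adjusted p of 0.242, since the NON arrays lay under that level.

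Tlr7, the endosomal sensor of single-stranded RNA, measured 8.09 and 8.02 in NON, against 8.96 and 9.16 in NOD, a difference of -1.002 ± 0.21 (adjusted p = 0.00111), and the NOD mean was the highest of all 40 groups. Nod2, the cytosolic sensor of muramyl dipeptide, measured 7.15 and 7.33 in NON, against 7.86 and 7.77 in NOD, a difference of -0.57 ± 0.13 (adjusted p = 0.00275), and the NON mean was the lowest of all groups. Tlr2, Tlr4, Tlr8, Tlr9 and Tlr13 did not pass the test, with differences between -0.46 and 0.11. Nod2 was not called without NON replicate 1 or NOD replicate 1, with adjusted p of 0.0785 and 0.0553.

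Inflammasome sensors moved in both directions, with 1 of 15 higher and 3 lower, beside 2.84% of all genes higher and 3.01% lower. Nlrp1b, the sensor cleaved by anthrax lethal factor, measured 7.38 and 7.45 in NON, against 6.24 and 6.24 in NOD, a difference of 1.18 ± 0.19 (adjusted p = 1.11e-05). Naip6 measured 6.16 and 5.96 in NON, against 7.62 and 7.63 in NOD, a difference of -1.56 ± 0.23 (adjusted p = 2.78e-06), and its neighbour Naip5, a sensor of bacterial flagellin, measured 7.28 and 7.15 in NON, against 8.32 and 8.21 in NOD, a difference of -1.05 ± 0.16 (adjusted p = 7.92e-06). Naip2, a sensor of bacterial secretion system rods, differed by -0.49 ± 0.15 (adjusted p = 0.0384), and lost the call in all 4 fits with 1 array left out, with adjusted p from 0.0502 to 0.317, with the NON and NOD arrays alone (adjusted p = 0.087) and with groups by background label (adjusted p = 0.0502). The Naip genes are near copies of each other, so their probe sets may share signal. Nlrp3, Nlrc4, Pycard and Casp1 were not called.

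**Figure D4:**
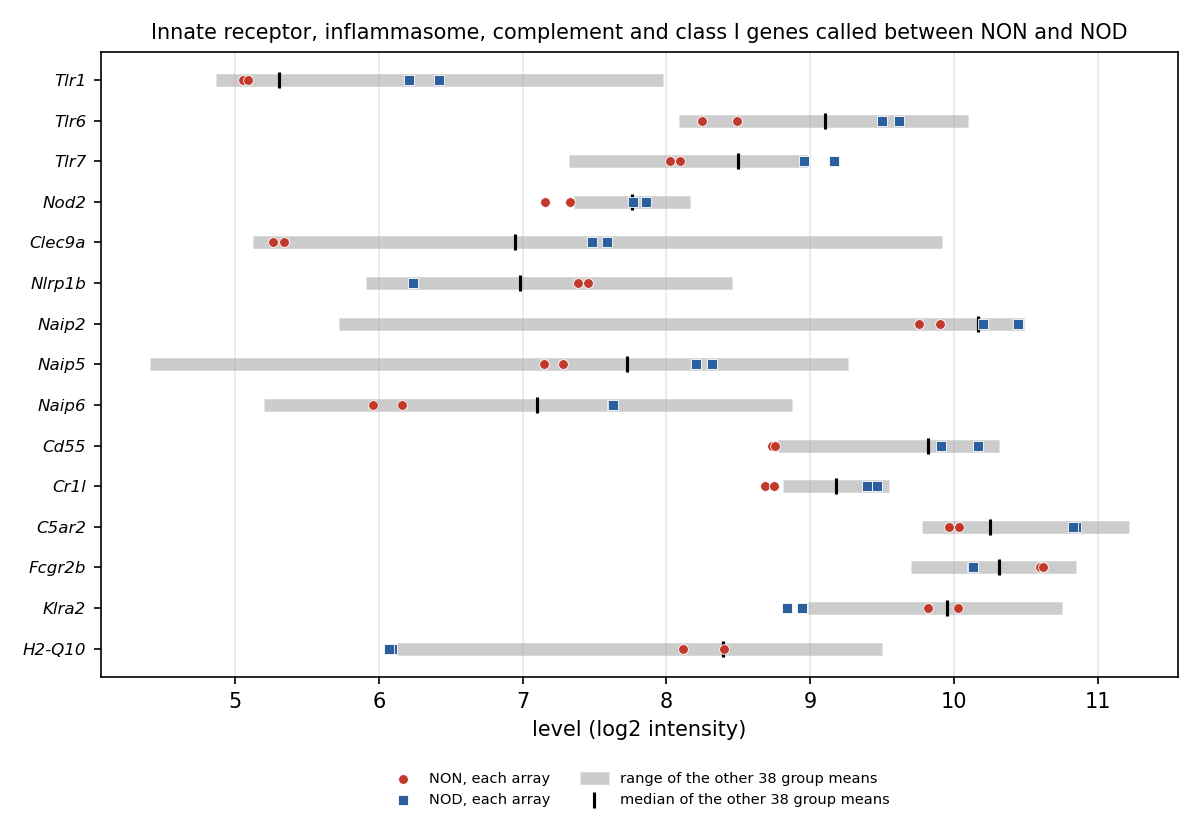
Level (log2 intensity, x axis) of 15 called genes of innate sensing, inflammasomes, complement regulation, Fc and inhibitory receptors and class I histocompatibility, drawn as in the plot of the largest differences. The NON arrays (circles) lie below the NOD arrays (squares) for Tlr1, Tlr6, Tlr7, Nod2, Clec9a, the Naip genes, Cd55, Cr1l and C5ar2, and above them for Nlrp1b, Fcgr2b, Klra2 and H2-Q10.

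Of 16 measured Fc, complement and integrin receptors, 1 was higher, 2 were lower and 13 were not called, with a median of -0.04, beside 2.84% of all genes higher and 3.01% lower. The lower genes were Cr1l and C5ar2, which act in complement, while C3ar1 and C5ar1, other complement receptors, were not called, with differences of 0.02 and -0.14. Cd55 of the diabetes candidate list, decay accelerating factor, which protects cells from complement, measured 8.73 and 8.76 in NON, against 9.91 and 10.17 in NOD, a difference of -1.30 ± 0.18 (adjusted p = 7.21e-07), and the NON mean was the lowest of all groups. Cr1l, the complement regulator Crry, measured 8.69 and 8.75 in NON, against 9.39 and 9.46 in NOD, a difference of -0.71 ± 0.16 (adjusted p = 0.00201), and NON was again the lowest. C5ar2, a second receptor for the fragment C5a, measured 9.96 and 10.04 in NON, against 10.85 and 10.83 in NOD, a difference of -0.84 ± 0.14 (adjusted p = 2.76e-05). Fcgr2b, the inhibitory Fc receptor for IgG, was higher at 10.60 and 10.62 in NON, against 10.12 and 10.13 in NOD, a difference of 0.48 ± 0.12 (adjusted p = 0.00641), and was not called without NON replicate 2, NOD replicate 1 or NOD replicate 2, with adjusted p from 0.0561 to 0.0605. Klra2, an inhibitory lectin-like receptor of the Ly49 family, was higher as well, at 10.03 and 9.82 in NON, against 8.94 and 8.84 in NOD, and NOD was the lowest group. It was the only called member of 21 inhibitory and paired receptors, and Klra genes are near copies of each other.

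Among 37 measured genes that have been named as candidates for Idd loci or type 1 diabetes, 1 was higher and 3 were lower, beside 2.84% of all genes higher and 3.01% lower, and the median difference was -0.01. With intensities under 64 set to 64, 2 were higher and 2 lower. The genes called without that setting were Fcgr2b, which was higher, and Cd55, Tlr1 and Nrp1, which were lower. Nrp1, a co-receptor for semaphorins, measured 8.63 and 8.44 in NON, against 9.51 and 9.51 in NOD, a difference of -0.97 ± 0.18 (adjusted p = 1.71e-04). Il1b, a main inflammatory cytokine of neutrophils, measured 11.54 and 11.56 in NON, against 10.91 and 10.97 in NOD and was not called, with an adjusted p of 0.209. Ptpn22, Sirpa, Ifih1, B2m and Tyk2 were not called.

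In the histocompatibility region, H2-Q10, a secreted class I molecule best known from liver, was the only called member of 8 class I genes. Over all genes, 2.84% were called higher and 3.01% lower. H2-Q10 measured 8.11 and 8.40 in NON, against 6.09 and 6.07 in NOD, a difference of 2.18 ± 0.19 (adjusted p = 1.79e-12), and NOD was the lowest of all groups. Whether the class I probe sets share signal was not tested. Calr, the chaperone calreticulin, measured 10.41 and 10.76 in NON, against 10.14 and 9.86 in NOD, and was the only called member of 10 genes of class I peptide loading. Its difference of 0.58 was 0.41 without NON replicate 2 and 0.44 without NOD replicate 2, and it was then not called, with adjusted p of 0.0666 and 0.0553. Of 10 class II genes none was called by limma, and 3 had an unadjusted p under 0.05, beside 3706 of all 19752 genes. All 10 had a positive difference, with a median of 0.25. The class II list averaged 6.53 and 6.35 on the NON arrays, against 6.09 and 6.24 on the NOD arrays, and the NOD mean was the lowest of the 40 groups. Class II genes are made by B cells, dendritic cells and macrophages. The B cell markers averaged 6.19 and 6.13 in NON, against 6.07 and 6.08 in NOD. The monocyte and macrophage markers averaged 7.74 and 7.59 in NON, against 7.52 and 7.51 in NOD. The dendritic cell markers averaged 6.36 and 6.15 in NON, against 6.10 and 6.22 in NOD, and overlapped between the strains. The part of such cells in the class II levels was not tested.

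Of 31 interferon-stimulated genes, 0 were called higher and 2 lower, with a median of -0.27, beside 2.84% of all genes higher and 3.01% lower, and 25 of the 31 had a negative difference. Rsad2, the antiviral enzyme viperin, measured 7.64 and 8.06 in NON, against 8.88 and 8.81 in NOD, a difference of -0.999 ± 0.27 (adjusted p = 0.0154), and Cmpk2, encoded beside it, measured 9.49 and 9.45 in NON, against 10.02 and 10.05 in NOD, a difference of -0.57 ± 0.16 (adjusted p = 0.0188). Leaving out NOD replicate 1, NOD replicate 2 or NON replicate 1 left neither called, and without NON replicate 2 1 was called. Gbp8 was the only called gene of 9 guanylate-binding and immunity-related GTPases, at 6.28 and 6.19 in NON, against 5.40 and 5.36 in NOD, and was not called without NON replicate 1 or NOD replicate 2, with adjusted p of 0.062 and 0.0664. None of 8 Ifi200 family genes was called by limma, and 2 had an unadjusted p under 0.05, beside 3706 of all 19752 genes. Cxcl10, an interferon-induced chemokine, was the only called member of 11 chemokines, at 7.35 and 7.38 in NON, against 6.70 and 6.55 in NOD, and was not called without NOD replicate 2 (adjusted p = 0.0816). Of 23 cytokine and chemokine receptors, Tnfrsf23, a decoy receptor for TRAIL, and Ifnar1, a subunit of the type I interferon receptor, were lower, by -0.59 ± 0.17 (adjusted p = 0.0254) and -0.38 ± 0.12 (adjusted p = 0.0482). The count of 2 was 1, 0, 0 and 0 without NON replicate 1, NON replicate 2, NOD replicate 1 and NOD replicate 2, and 0 with groups by background label.

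Of 24 lipid handling genes, 5 were higher, 0 lower and 19 not called, with a median of 0.08, beside 2.84% of all genes higher and a median over all genes of 0.05. Sqle, squalene epoxidase, measured 7.76 and 8.23 in NON, against 7.04 and 6.73 in NOD, a difference of 1.11 ± 0.19 (adjusted p = 4.61e-05). Hmgcs1, which makes the precursor of mevalonate, measured 8.89 and 9.19 in NON, against 8.32 and 8.19 in NOD, a difference of 0.79 ± 0.23 (adjusted p = 0.0246). Fasn, fatty acid synthase, and Srebf2, the regulator of sterol synthesis genes, differed by 0.51 ± 0.11 (adjusted p = 0.00193) and 0.43 ± 0.14 (adjusted p = 0.0453). Alox15, a lipoxygenase of eosinophils and macrophages, measured 8.49 and 8.46 in NON, against 6.82 and 6.50 in NOD, a difference of 1.82 ± 0.20 (adjusted p = 3.07e-09), with the highest NON mean of all groups. Sqle and Alox15 kept the call with each array left out, while Srebf2 lost it in all 4 such fits, Hmgcs1 in 3 and Fasn without NON replicate 2, with adjusted p from 0.0554 to 0.29. The count for the list was 4, 2, 3 and 3 without NON replicate 1, NON replicate 2, NOD replicate 1 and NOD replicate 2. Of 22 genes of glycolysis and glycogen, 19 immediate early and stress genes and 12 Bcl2 family genes none was called by limma. At an unadjusted p under 0.05 these lists had 4, 5 and 2, beside 3706 of all 19752 genes. S100a10, a partner of annexin, was the called member of 6 S100 genes, at 7.005 and 7.26 in NON, against 6.68 and 6.66 in NOD. Its difference was 0.47 (adjusted p = 0.0446), and it was not called without NON replicate 2, NOD replicate 1 or NOD replicate 2, with adjusted p of 0.323, 0.171 and 0.191.

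Called members stood in 4 lists of markers of other blood cells, those of eosinophils, platelets, T and NK cells, and basophils and mast cells. In the eosinophil list, Alox15 and Ccr3, the eotaxin receptor, were higher, beside 2.84% of all genes higher. Its 9 measured members had a median difference of 0.30, beside 0.05 over all genes, and 8 of the 9 differences were positive. The list averaged 7.26 and 7.11 in NON, against 6.69 and 6.74 in NOD. The NON mean of 7.185 was barely above the next group, titled DBA2, at 7.183, and NON replicate 2 lay below that group. Ccr3 measured 7.63 and 7.42 in NON, against 6.78 and 6.60 in NOD, while Epx, eosinophil peroxidase, measured 5.66 and 5.73 in NON, against 5.27 and 5.57 in NOD and was not called. Ccr3 lost the call in all 4 fits with 1 array left out, with adjusted p from 0.0521 to 0.173, with quantile normalization (adjusted p = 0.0561) and with a common array median (adjusted p = 0.0566), and Alox15 was the 1 called member in each left-out fit. Whether eosinophils contributed to the difference of Alox15 was not tested.

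In the platelet list, NOD replicate 2 stood apart. Ppbp, a platelet chemokine, measured 5.45 and 5.71 in NON, against 8.17 and 11.51 in NOD, so that the NOD arrays lay far apart from each other and both above the NON arrays. The difference was -4.26 ± 0.50 (adjusted p = 1.07e-08), and it was -2.59 without NOD replicate 2. Pf4, platelet factor 4, measured 5.36 and 5.13 in NON, against 5.31 and 6.43 in NOD, with a difference of -0.63 ± 0.17 (adjusted p = 0.0163). Without NOD replicate 2 it was -0.07 with an adjusted p of 0.886, and without NON replicate 2 it was not called either, with an adjusted p of 0.185. NOD replicate 2 was also the highest array for Itga2b, Itgb3, Gp9, Gp5, Vwf and Tubb1, none of which was called. The 9 measured members averaged 7.06 and 7.05 in NON, against 7.30 and 8.20 in NOD. Clec1b, which platelets express too, was alike on both NOD arrays, at 7.91 and 7.89. Without NOD replicate 2, the counts of higher genes were 8 for replication, 3 for mitosis and 11 for histones.

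**Figure D5:**
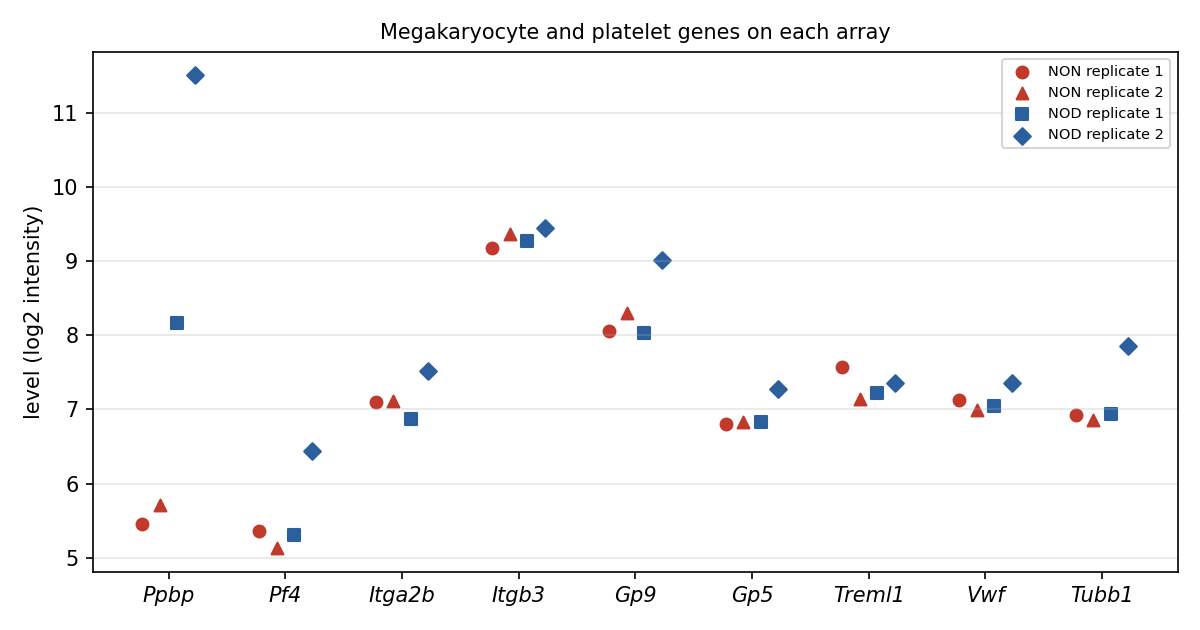
Level (log2 intensity, y axis) of the 9 measured megakaryocyte and platelet genes on each of the 4 arrays. NOD replicate 2 (diamonds) is the highest array for every gene but Treml1, and for Ppbp both NOD arrays lie above both NON arrays.

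The erythroid, B cell, dendritic cell and monocyte and macrophage lists had no member called by limma, beside 2.84% of all genes higher and 3.01% lower. At an unadjusted p under 0.05 they had 1, 1, 0 and 1, beside 3706 of all 19752 genes. Nkg7 was the only called member of the T and NK cell list, in which Cd3d, Cd3e and Cd3g were not called, and it lost the call without NON replicate 1 or NOD replicate 1, with adjusted p of 0.0711 and 0.068. Hdc, histidine decarboxylase, which neutrophils as well as basophils make, was the only called member of the basophil and mast cell list, at 11.01 and 11.13 in NON, against 11.66 and 11.69 in NOD. Of the sex-linked genes, Kdm5d on the Y chromosome measured 7.60 and 7.79 in NON, against 8.28 and 8.34 in NOD, a difference of -0.62 ± 0.17 (adjusted p = 0.0172), in samples that the labels give as male, and was called in 1 of the 4 fits with 1 array left out.

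MicroRNA genes were represented by probe sets that read the transcript over the hairpin and not the mature RNA. Of 299 such genes, 1 was higher and 7 lower, shares that were not above the 2.84% and 3.01% of all genes, and those lower by at least 1 were Mir16-1, Mir687, Mir1839 and Mir350, named after their values were seen. Mir16-1, of the cluster that holds back cell cycle genes in mouse and human, measured 6.69 and 6.62 in NON, against 7.81 and 7.76 in NOD, a difference of -1.13 ± 0.31 (adjusted p = 0.017). Mir687, the neighbour of Lpar6 among the measured genes, measured 6.45 and 6.26 in NON, against 7.59 and 7.30 in NOD, a difference of -1.08 ± 0.30 (adjusted p = 0.0168). Mir1839 measured 3.89 and 4.08 in NON, against 5.06 and 5.09 in NOD, a difference of -1.08 ± 0.23 (adjusted p = 0.00133). Every NON and NOD array of Mir1839 lay under 64 intensity units, so setting lower intensities to 64 would leave no difference. Mir350 measured 5.66 and 6.01 in NON, against 6.78 and 7.03 in NOD, a difference of -1.07 ± 0.28 (adjusted p = 0.0105). The microRNA genes were not among the named genes compared under the alternative settings. The mature forms were not measured. Their RefSeq mature sequences are shown with the seed, bases 2 to 8, in capitals, and no pair of them shares a seed.
mmu-miR-16-5p: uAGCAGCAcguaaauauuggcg
mmu-miR-16-1-3p: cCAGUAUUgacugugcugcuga
mmu-miR-687: cUAUCCUGgaaugcagcaauga
mmu-miR-1839-5p: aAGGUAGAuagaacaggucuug
mmu-miR-350-5p: aAAGUGCAugcgcuuuggg
mmu-miR-350-3p: uUCACAAAgcccauacacuuuc

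Each strain was also set against the other 33 classical strains, with the strain mean as the unit, to see which genes lay outside the spread between strains. The 33 include NOR, which was bred from NOD. How far NOR in that group affected the NOD comparison was not tested. For NON, 8 probe sets of 7 genes were called by limma, or 0.0321%. The genes above the other strains were Gm10244, Cyp8b1, Fads1, Ext2 and Mcm2, and those below them were Atp8b4 and Zfp738, a zinc finger gene called by both of its probe sets. Fads1, a desaturase that makes arachidonic acid, measured 7.10 and 7.25 in NON, against 6.12 and 6.04 in NOD, and NON was 1.06 ± 0.20 above the other classical strains with an adjusted p of 0.0408. Cyp8b1, the sterol hydroxylase that makes cholic acid, measured 6.92 and 6.84 in NON, against 5.94 and 5.85 in NOD, and NON was 0.71 ± 0.11 above them with an adjusted p of 9.20e-04. Mcm2 was 1.38 ± 0.28 above them with an adjusted p of 0.0408. Atp8b4, a phospholipid-transporting ATPase, measured 10.36 and 10.12 in NON, against 11.46 and 11.61 in NOD, and NON was 1.15 ± 0.23 below the other strains.

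For NOD, 0 probe sets, or 0%, were called by limma against the other classical strains, and 711 had an unadjusted p under 0.05. The smallest adjusted p was 0.0808, shared by Fmo5, Zgrf1, Ppbp, Pf4, Pagr1a, Desi1 and AI504432. Fmo5, a flavin monooxygenase, measured 11.26 and 11.35 in NON, against 9.61 and 9.73 in NOD. Its other group means ran from 9.63, in NOR, to 11.55. For NON the count of unadjusted p under 0.05 was 1565. Both comparisons use the same other strains. The counts moved with single arrays, to 104 and 93 for NON when its mean and that of NOD were taken from 1 replicate, and to 16 and 24 for NOD.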

How the data were processed

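Per the labels' protocols, TriZol-extracted RNA was biotin-labelled and hybridised to Affymetrix whole-transcript arrays. Affymetrix Power Tools and RMA are named in the submitters' processing notes. The authors deposited 1 linear intensity value per probe set and array. They ran from 5.3 to 19348, with array medians from 97.2 to 114.8. The genome build is not given in the sources used here, nor are scan batches. Probes of this array follow the C57BL/6J reference, so these values do not separate a variant under a probe from a lower transcript level.

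The intensities as deposited by the authors were converted to log2. Through the platform's annotation, 21425 probe sets had 1 symbol, 1399 had several and 2098 had none, and those of 1 symbol were named. Symbols were updated through RefSeq (GRCm38.p6), which held 19677 of the 19752 genes and gave neighbour order. Arrays were grouped by title. In 5 groups, neither NON nor NOD, title and background label name different strains.

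Tests used limma 3.58.1 in R 4.3.3, with 1 mean per group, 41 residual and 7.93 prior degrees of freedom, and Benjamini-Hochberg adjustment over all probe sets. In the comparison with other classical strains, strain means were the replicates and the 5 wild-derived strains had a mean of their own. Both fits were tested on simulated data. Named genes were the 15 genes that differed most in each direction, among called genes with a difference of at least 1, no overlap of arrays and a higher mean of 7 or more, up to 8 called members of a list by size, and runs of at least 3 neighbours. The 41 lists (31 of pathways and functions, 10 of cell markers) hold 728 entries, of which 603 were measured. Members, lists and rules were chosen with earlier results of these data known. Alternatives were a common array median, quantile normalization, a trended robust prior, a minimum mean of 7, intensities under 64 set to 64, the 4 arrays alone, a replicate block, grouping by background label, leaving out groups of conflicting labels, and leaving out each array.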

Additional observations from a re-analysis of the deposited data

How the results depend on the processing

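The counts of called probe sets rest on 2 arrays per strain and on a spread pooled over 40 groups. Leaving out 1 array gave 671 to 1023 calls, against 1440, and 220 to 311 calls with a difference of at least 1, against 254, and the lone array left is assumed to vary like the other groups. With the replicate block 1394 probe sets were called. Labels do not say that a number pairs the arrays, and the deviations of arrays with the same number correlated at -0.307. The NON and NOD arrays alone gave 1004 calls. No direction reversed among the 107 named genes under the 13 alternatives, where they were tested. Of 1365 values, 1202 kept their side of the threshold and 163 lost the call, from 45 genes, and the cause was not tested.

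The replication count was 9 with a minimum mean of 7, a setting that tests fewer genes, and 8 to 21 with 1 array left out. The mitosis count was 7 with a common array median, 19 with the NON and NOD arrays alone and 3 to 8 with 1 array left out. The histone count was 10 to 14 and the count of lower pattern recognition genes 4 to 5 with 1 array left out. Against the other classical strains, NON had 2 calls with quantile normalization, 0 with a minimum mean of 7 (894 at an unadjusted p under 0.05) and 93 to 104 with 1 replicate left out, and the cause was not tested. NOD had 8 calls with quantile normalization, 8 with conflicting and single-array groups left out and 16 to 24 with 1 replicate left out. Array values near the low end of the scale have no detection limit, which limits the fold changes of dim genes.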

Other observations

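A few further genes, chosen after their values were seen, differed by at least 1 and belong to no list above. Ctse, cathepsin E, an aspartic protease of myeloid cells, measured 12.93 and 12.83 in NON, against 11.15 and 11.24 in NOD, a difference of 1.68 ± 0.13 (adjusted p = 2.42e-14). Fmo5 measured 11.26 and 11.35 in NON, against 9.61 and 9.73 in NOD, a difference of 1.63 ± 0.11 (adjusted p = 3.25e-17). Cxcr1, a receptor for neutrophil chemokines, measured 7.73 and 7.75 in NON, against 6.31 and 6.61 in NOD, a difference of 1.28 ± 0.16 (adjusted p = 4.27e-08), and the NOD mean was the lowest of all groups. Saa4, a serum amyloid A gene, measured 7.29 and 6.75 in NON, against 4.78 and 5.002 in NOD, a difference of 2.13 ± 0.20 (adjusted p = 1.96e-11). Eif2ak2, the antiviral kinase PKR, measured 7.37 and 7.38 in NON, against 6.14 and 6.08 in NOD, a difference of 1.26 ± 0.21 (adjusted p = 3.58e-05), while most of the interferon-stimulated list had small negative differences.

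Lower in NON were Entpd1, the ectonucleotidase CD39, at 10.12 and 10.12 in NON, against 11.50 and 11.43 in NOD, a difference of -1.34 ± 0.12 (adjusted p = 5.38e-12), and Cd69, an early activation antigen, at 5.22 and 5.12 in NON, against 6.66 and 6.96 in NOD, a difference of -1.64 ± 0.21 (adjusted p = 1.36e-07). The NOD mean of Cd69 was the highest of all groups. Cd48, a ligand of the receptor CD244, measured 6.34 and 6.56 in NON, against 7.56 and 7.46 in NOD, a difference of -1.06 ± 0.16 (adjusted p = 6.86e-06). Ighg3, a constant region gene of immunoglobulin made by plasma cells, measured 6.58 and 6.63 in NON, against 8.17 and 8.52 in NOD, a difference of -1.74 ± 0.32 (adjusted p = 1.68e-04), while the B cell list had no called member. The part of plasma cells in the level of Ighg3 was not tested. Tmsb10, an actin monomer binding protein, was lower through both of its probe sets, by -1.70 on each, and Tfb2m, a mitochondrial transcription factor, was higher through both, by 1.29 and 1.32. Of the 4 genes with several probe sets among the 193 with a called difference of at least 1, 3 were called the same way by all of them.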
